A study of Mus musculus with 12 samples.

Results

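The genes described here are 54 genes of the DNA replication machinery. They were chosen by function, from textbook roles in origin licensing, the replication fork and nucleotide supply. All 54 were found among the 54532 Ensembl gene IDs of the deposited count table, and all 54 were among the 16675 genes that passed the low-count filter. They were measured by bulk RNA sequencing of poly-A RNA from mouse bone marrow haematopoietic stem and progenitor cells (HSPCs), the cells that form all blood lineages. The 12 libraries formed 4 groups of 3. These were aged HSPCs cultured with uridine, a pyrimidine nucleoside; aged HSPCs cultured with vehicle; uncultured aged HSPCs; and uncultured young HSPCs. All were labelled wild type (WT). The strain label was c57bl/6 WT in the vehicle libraries and carried a different, higher number in each of the other 9 libraries, so the strain of those is uncertain. The labels did not state mouse age, uridine dose, culture time or sort markers, and did not say if the 3 libraries of a group were made from different mice or cultures. The p-values thus reflect the scatter of these libraries alone, and this scatter may be technical.

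Library totals ran from 16785065 to 19025802 counts. Levels are given in CPM, that is, read counts scaled to a common library size with TMM factors. The 12 markers of HSPCs were detected in every group, with summed levels of 1344 to 1403 CPM with uridine, 1610.4 to 1616 CPM with vehicle, 1061 to 1089.8 CPM in uncultured aged cells and 1089 to 1107 CPM in uncultured young cells. Among them, Ly6a, which encodes the stem cell antigen Sca-1, had 265, 249.7 and 261 CPM with uridine, 458, 465 and 441 CPM with vehicle, 252, 242 and 247 CPM in aged cells and 18.8, 17.6 and 16.9 CPM in young cells. Kit, the stem cell factor receptor, had 275, 269.7 and 277 CPM with uridine, 263, 263 and 260.3 CPM with vehicle, 198, 204 and 203 CPM in aged cells and 252, 259 and 251 CPM in young cells. Ly6a was thus far lower in the young libraries than in the others, whereas Kit was lowest in the aged libraries. Markers of other blood cells also differed between groups. Immunoglobulin genes and Jchain, products of antibody-secreting cells, took 0.601 to 0.615% of the counts with uridine, 0.922 to 0.924% with vehicle, 21.6 to 21.9% in aged cells and 0.540 to 0.544% in young cells. In bulk RNA, fewer cells of a type and less RNA per cell cannot be told apart.

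DNA replication starts at origins that are marked by the origin recognition complex (ORC). Cdc6 and Cdt1 then load the ring-shaped MCM helicase onto DNA, which licenses the origin. In S phase the helicase is joined by Cdc45 and the GINS complex, DNA polymerases copy both strands on a sliding clamp, and ribonucleotide reductase supplies the deoxynucleotides. Most of these genes are transcribed in cycling cells under E2F transcription factors and are low in resting cells. Haematopoietic stem cells are mostly quiescent, whereas progenitors cycle.

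Because E2F sites are a known feature of such genes, the promoters were examined for 4 words of the E2F type, TTTCCCGC, TTTGGCGC, TTTCGCGC and TTTGCCGC, on both strands, in windows of 250 bases before to 50 bases after the annotated start (RefSeq, GRCm38.p6). A window was at hand for 44 of the 54 genes. One or more E2F words were found in 16 of the 44 (36.4%), against 548 of 16522 protein-coding genes (3.32%). The word CCAAT was found in 27 of the 44 (61.4%), against 42.1% of protein-coding genes, and both kinds of word in 10 (22.7%), against 1.61%. By role, E2F words were found in 4 of 6 MCM genes, 4 of 8 licensing genes, 3 of 6 polymerase and primase genes, neither of the 2 ribonucleotide reductase genes and none of the 3 genes of the single-strand binding protein RPA. Each match describes the letters of the window only.

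The 200 bases before the start of 4 genes are shown because their E2F words lie within that stretch and because they cover origin recognition, the helicase and the first polymerase; they were picked after their values were seen. Capitals mark the E2F words, on either strand. In Mcm5 (chr8:75109309-75109508, + strand) 2 overlapping words begin 153 and 149 bases before the start. In Mcm6 (chr1:128359706-128359905, - strand) 2 overlapping words begin 110 and 106 bases before the start and a further one 47 bases before it. Orc1 (chr4:108579254-108579453, + strand) has a word 27 bases before the start, and Pola1 (chrX:93632156-93632355, - strand) has one 138 bases before it.
Mcm5: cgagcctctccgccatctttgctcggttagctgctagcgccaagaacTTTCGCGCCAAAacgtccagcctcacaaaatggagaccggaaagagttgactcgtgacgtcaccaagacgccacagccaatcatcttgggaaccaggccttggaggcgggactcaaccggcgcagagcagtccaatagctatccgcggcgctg
Mcm6: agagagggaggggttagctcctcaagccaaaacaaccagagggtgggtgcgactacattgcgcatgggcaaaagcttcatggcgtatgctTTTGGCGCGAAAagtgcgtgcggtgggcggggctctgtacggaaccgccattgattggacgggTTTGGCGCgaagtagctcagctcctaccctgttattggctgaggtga
Orc1: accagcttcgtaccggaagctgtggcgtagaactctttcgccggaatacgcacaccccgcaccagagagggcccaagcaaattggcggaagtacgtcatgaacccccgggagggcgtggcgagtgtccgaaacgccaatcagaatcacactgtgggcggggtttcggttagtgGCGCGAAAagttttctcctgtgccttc
Pola1: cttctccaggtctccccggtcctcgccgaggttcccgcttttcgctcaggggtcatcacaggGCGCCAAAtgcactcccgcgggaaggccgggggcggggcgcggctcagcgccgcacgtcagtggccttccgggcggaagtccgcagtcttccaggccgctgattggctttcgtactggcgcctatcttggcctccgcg

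Across the 4 groups most replication genes were highest in young cells and lowest in uncultured aged cells. The 54 genes together summed to 7000 to 7041 CPM with uridine, 6325 to 6382 CPM with vehicle, 4870 to 4989 CPM in uncultured aged cells and 8434 to 8463 CPM in uncultured young cells, and the ranges of the groups did not overlap. As a share of all counts outside the immunoglobulin genes, this was 0.756% with uridine in each library, 0.673 to 0.678% with vehicle, 0.520 to 0.531% in aged cells and 0.898 to 0.900% in young cells. By group mean, 44 of the 54 genes were highest in young cells and 47 were lowest in uncultured aged cells, and 33 ran in the full order young, uridine, vehicle, aged. Of the levels in young cells, the median gene reached 86.2% with uridine, 80.9% with vehicle and 60.4% in uncultured aged cells. Across the 12 libraries the median Pearson correlation between pairs of these genes was 0.82, which is a description, since the libraries share groups.

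**Figure D1:**
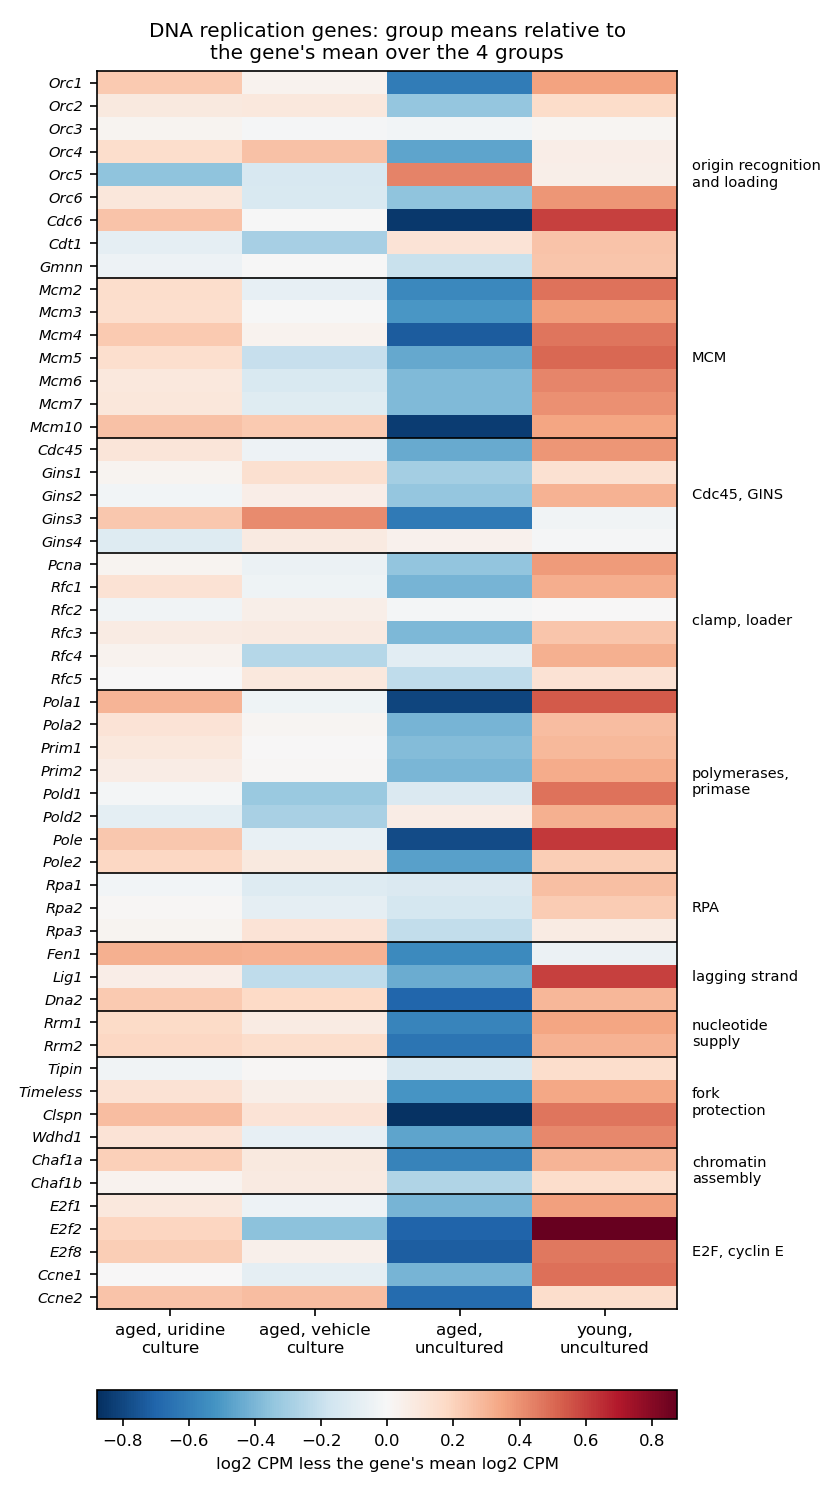
Log2 of the group mean CPM (3 libraries per group) of the 54 replication genes (rows, by role) in the 4 groups (columns), less each gene's mean over the groups; red is higher and blue lower. For 44 genes the young group is the highest and for 47 the uncultured aged group is the lowest, whereas Orc5 is highest in aged cells.

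Uncultured aged cells had lower levels of nearly the whole machinery than uncultured young cells. Of the 54 genes, 50 fell, 1 rose and 3 were not called by edgeR's quasi-likelihood test (Benjamini-Hochberg adjusted p under 0.05 over all 16675 genes). Among all genes tested, 32.1% fell and 33.2% rose. The median log2 fold change of the 54 genes was -0.73, a level 0.604 times that of young cells, against 0.02 for all genes, and single genes ran from -1.58 to 0.38.

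Culture of aged cells with vehicle was accompanied by higher levels of most of them. Against uncultured aged cells, 44 rose, 4 fell and 6 were not called, with a median log2 fold change of 0.40 against -0.01 for all genes. Of all genes, 35.4% rose and 35.1% fell in this comparison. Uridine against vehicle gave smaller differences: 26 rose, 1 fell and 27 were not called, beside 20.0% of all genes higher and 18.1% lower. The median was 0.10, against -0.001 for all genes, and single genes ran from -0.21 to 0.55. After subtraction of the young-like share of the uridine libraries, which is measured further on, 2 rose and 8 fell, beside 6.53% and 10.0% of all genes. Of the 26 rises, 24 were then no longer called as rises and 9 had a value below 0. The share removed lay near the share of the replication genes themselves, so values near 0 after it follow largely from this choice. They describe the data and do not test the rises. The uridine values below are as deposited, and values after this subtraction are given beside many of them. Uridine-cultured cells against uncultured aged cells showed 47 higher, 3 lower and 4 not called, with a median of 0.50, beside 35.8% of all genes higher and 32.1% lower. The counts by role below cover few genes each and are to be read beside the shares of all genes given here. The uridine and vehicle groups are each set against the same uncultured aged libraries, and the aged libraries against the young ones, so these comparisons share samples.

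The samples also differed in cells of other types, and the values are given here for the lists as a whole. The 12 plasma cell markers summed to 1021 to 1057 CPM with uridine, 1403 to 1456 CPM with vehicle, 27495 to 27806 CPM in uncultured aged cells and 929.7 to 936 CPM in young cells. The 13 B cell markers summed to 563 to 586 CPM with uridine, 445 to 447 CPM with vehicle, 6217 to 6484 CPM in aged cells and 1073 to 1088 CPM in young cells. The median B cell marker changed more than this sum. With vehicle culture all 13 fell, at a median level 0.0239 times that of uncultured aged cells. With uridine over vehicle 12 rose and 1 fell, at a median level 13.1 times that of vehicle. The 10 markers of T and natural killer cells summed to 55.7 to 59.7 CPM with uridine, 34.7 to 37.95 CPM with vehicle, 285.5 to 311 CPM in aged cells and 109 to 112 CPM in young cells. Of these 10, 8 rose with age, 10 fell with vehicle culture and 9 rose with uridine over vehicle. The markers of these 3 lists were all detected in every group. The sum of each list was highest in the uncultured aged libraries, where the replication genes were lowest. With age all 12 plasma cell markers rose, whereas 8 of the 13 B cell markers rose and 5 fell. The 10 macrophage markers summed to 2604 to 2662 CPM with uridine and 4039 to 4088 CPM with vehicle. In aged cells they summed to 499.7 to 520.5 CPM and in young cells to 1307 to 1364 CPM. These sums were highest after culture, although 3 of the 10 markers fell and 7 rose with vehicle culture. The sum of the neutrophil markers, given with the uridine comparison, was highest in the young libraries, where the replication genes were also highest. The part of these cells in the age and culture differences was not tested. Leaving out the immunoglobulin genes and Jchain before scaling gave 50 lower genes in aged cells and 44 higher genes with vehicle.

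**Figure D2:**
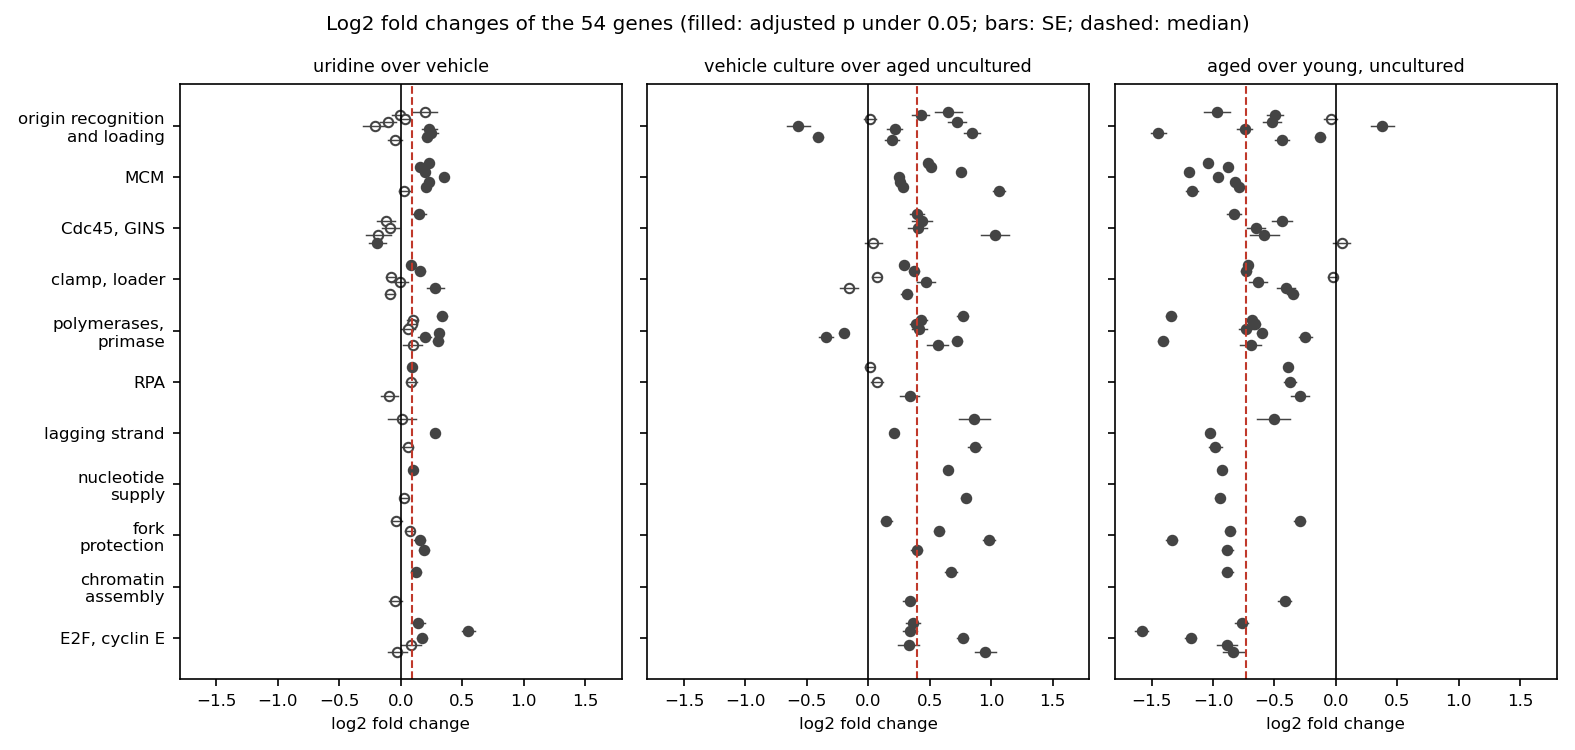
Log2 fold changes (x axes) of the 54 replication genes by role (rows), 1 point per gene with its SE, in 3 comparisons: uridine over vehicle, vehicle over uncultured aged, and aged over young. Filled points have an adjusted p under 0.05, and dashed lines mark the medians of 0.10, 0.40 and -0.73; the 7 MCM genes lie above 0 in the first 2 panels and below 0 in the last.

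Origin recognition and licensing genes moved in both directions. With age 7 of 9 fell and 1 rose (median -0.50). With vehicle culture 6 rose and 2 fell (median 0.21). With uridine over vehicle 3 (33.3%) rose and none fell (median 0.03), beside 20.0% and 18.1% of all genes. After the subtraction none was higher and 2 were lower (median 0.002), beside 6.53% and 10.0% of all genes. Cdc6 (chr11:98907801-98923940, mm10), the ATPase that brings the helicase to ORC, had 66.4, 72.2 and 61.96 CPM in the 3 uridine libraries, 55.01, 57.7 and 56.2 CPM with vehicle, 30.4, 29.5 and 34.03 CPM in aged cells and 85.5, 86.5 and 84.3 CPM in young cells. The 4 groups did not overlap. Its log2 fold change was -1.45 ± 0.06 (SE, adjusted p = 2.07e-21) for aged over young, 0.85 ± 0.06 (SE, adjusted p = 2.54e-14) for vehicle over aged and 0.25 ± 0.06 (SE, adjusted p = 5.82e-04) for uridine over vehicle. The last was 0.01 after the subtraction (adjusted p = 0.928).

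Cdt1 (chr8:122568015-122573554), the partner of Cdc6 in helicase loading, behaved otherwise. It had 136, 136 and 129.8 CPM with uridine, 117, 117 and 111 CPM with vehicle, 162, 143 and 154 CPM in aged cells and 165, 168 and 171 CPM in young cells. It fell by 0.13 on the log2 scale with age, the smallest called fall among the 54 genes and one lost without aged replicate 2 (-0.09, adjusted p = 0.0548), and was lowest after culture: -0.41 ± 0.04 (SE, adjusted p = 2.18e-11) for vehicle over aged. With uridine it was higher than with vehicle (0.22, or 0.002 and not called after the subtraction) but below uncultured aged cells (-0.20). Gmnn, which encodes the Cdt1 inhibitor geminin, fell with age (-0.44) and rose with vehicle culture (0.20). Its change with uridine over vehicle, -0.05, was not called.

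Among the ORC subunits, Orc5 was the one gene of the 54 that rose with age. It had 15.8, 14.4 and 17.1 CPM with uridine, 19.6, 17.5 and 17.7 CPM with vehicle, 29.4, 28.2 and 23.8 CPM in aged cells and 20.7, 21.1 and 20.8 CPM in young cells, so that every uncultured aged library lay above every other library. The change was 0.38 ± 0.09 (SE, adjusted p = 5.19e-04) for aged over young and -0.57 ± 0.09 (SE, adjusted p = 1.63e-06) for vehicle over aged. Orc1, the largest subunit, went the other way, with 20.7, 22.4 and 22.9 CPM with uridine, 18.7, 20.5 and 18.4 CPM with vehicle, 9.52, 13.8 and 13.4 CPM in aged cells and 24.7, 22.9 and 24.1 CPM in young cells (-0.97 ± 0.11 SE, adjusted p = 6.49e-10 for aged over young). The uridine and vehicle libraries of Orc1 did not overlap, yet the difference was not called (0.20 ± 0.10 SE, adjusted p = 0.117). Orc3 had means of 83.5 ± 4.45 CPM with uridine, 81.6 ± 0.72 CPM with vehicle, 80.9 ± 2.98 CPM in aged cells and 83.4 ± 6.07 CPM in young cells (SD, n = 3 each) and was called in none of the 4 comparisons. Orc2 and Orc4 fell with age (-0.50 and -0.52) and rose with vehicle culture (0.43 and 0.72), with no call for uridine over vehicle. Orc6 fell with age (-0.74), rose with vehicle culture (0.21) and was higher with uridine than with vehicle (0.23, or 0.04 and not called after the subtraction).

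The MCM genes moved as a block. All 7 fell with age (median -0.96), all 7 rose with vehicle culture (median 0.49), and 6 of 7 were higher with uridine than with vehicle (median 0.20; 1 of 7 after the subtraction). Mcm5 (chr8:75109569-75128439), a subunit of the MCM2-7 helicase ring and one of the genes whose promoter is shown above, had 399, 408 and 404 CPM with uridine, 312, 323 and 314 CPM with vehicle, 267, 262 and 270.1 CPM in aged cells and 528, 506 and 519 CPM in young cells. No library of one group reached the range of another. The log2 fold changes were -0.96 ± 0.03 (SE, adjusted p = 4.53e-27) for aged over young, 0.25 ± 0.03 (SE, adjusted p = 3.67e-10) for vehicle over aged and 0.35 ± 0.03 (SE, adjusted p = 1.58e-13) for uridine over vehicle, the last being the second highest of the 54 genes after E2f2 and 0.11 after the subtraction.

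Mcm4 (chr16:15623897-15637400), another subunit of the ring, had 264, 257 and 256 CPM with uridine, 232, 222 and 225 CPM with vehicle, 133, 132 and 136 CPM in aged cells and 307, 307 and 305 CPM in young cells, and fell with age by more than the rest of the family (-1.20 ± 0.03 SE, adjusted p = 4.66e-28). Mcm6, shown above, had 489.8, 495 and 500.5 CPM with uridine, 427, 428 and 414 CPM with vehicle, 364, 344 and 356 CPM in aged cells and 626, 616 and 634 CPM in young cells. Its 4 groups were also separate, with -0.82 for aged over young, 0.26 for vehicle over aged and 0.23 for uridine over vehicle. Mcm2, Mcm3, Mcm4 and Mcm7, the other subunits that rose with uridine over vehicle, had log2 fold changes of 0.23, 0.15, 0.20 and 0.20. After the subtraction Mcm6, Mcm2, Mcm3, Mcm4 and Mcm7 were at 0.006, 0.01, 0.01, 0.04 and 0.007, and none was called. Mcm10 (chr2:4989714-5012791), which is not part of the ring but helps to start it, had 94.4, 91.6 and 97.4 CPM with uridine, 94.6, 94.4 and 88.95 CPM with vehicle, 46.3, 42.1 and 44.8 CPM in aged cells and 102, 99.04 and 99.6 CPM in young cells. It rose most of all 54 genes with vehicle culture (1.06 ± 0.05 SE, adjusted p = 1.43e-20). Its uridine and vehicle libraries overlapped, and the difference of 0.03 was not called.

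Because the 6 ring subunits form a complex of 1 copy each, their levels were also set against each other per length, as CPM per kilobase of the principal transcript. Mcm6 had the highest and Mcm4 the lowest level in each group: 170 and 72.3 with uridine, 145 and 63.0 with vehicle, 122 and 37.3 in aged cells, and 215 and 85.4 in young cells. The ratio of the highest to the lowest was 2.35 with uridine, 2.31 with vehicle, 3.27 in aged cells and 2.52 in young cells. The order was Mcm6, Mcm7, Mcm3, Mcm5, Mcm2, Mcm4 in the uridine, aged and young groups; with vehicle Mcm3 came before Mcm7.

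**Figure D3:**
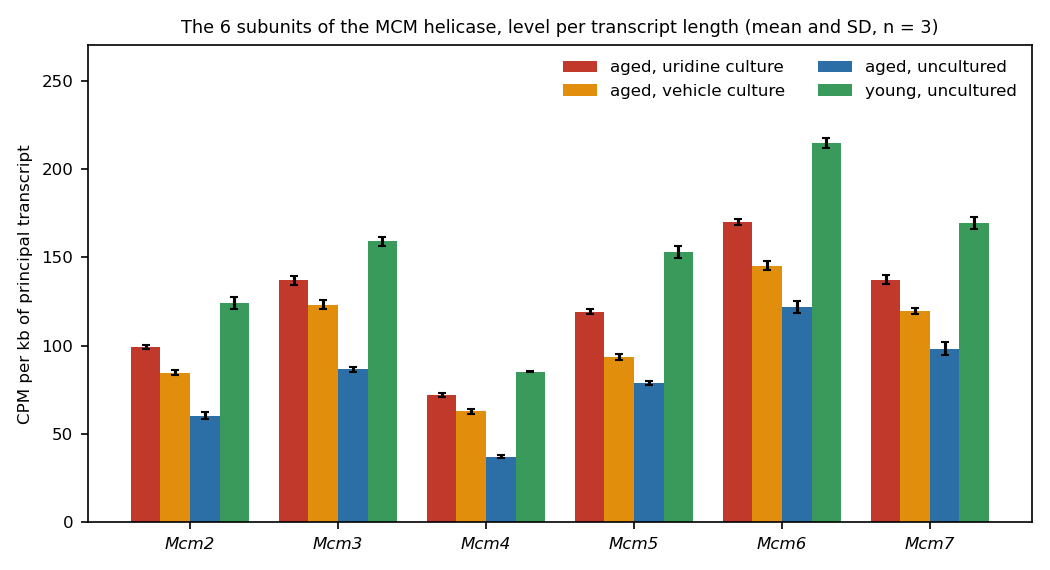
CPM per kilobase of the principal transcript (y axis) for the 6 subunits of the MCM2-7 ring (x axis), as bars for the mean of each group with its SD (n = 3). Mcm6 is highest and Mcm4 lowest in each group, and the ratio of the means is 3.27 in uncultured aged cells, against 2.31 to 2.52 in the other groups.

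Of Cdc45 and the 4 GINS subunits, which turn the loaded ring into an active helicase, 4 of 5 fell with age (median -0.58) and 4 rose with vehicle culture (median 0.40). With uridine over vehicle 1 rose and 1 fell (20% each), near the 20.0% and 18.1% of all genes, and the median was -0.12. After the subtraction none was higher and 2 were lower (median -0.20), beside 6.53% and 10.0% of all genes. Cdc45 (chr16:18780447-18811987) had 68.9, 68.3 and 70.8 CPM with uridine, 63.3, 63.6 and 60.5 CPM with vehicle, 50.7, 42.7 and 48.9 CPM in aged cells and 87.8, 85.3 and 80.1 CPM in young cells, with the young libraries highest and the aged libraries lowest (-0.83 ± 0.06 SE, adjusted p = 2.13e-15 for aged over young). Gins4 (chr8:23226616-23237659) was not called between aged and young cells, with 33.6, 33.8 and 36.3 CPM with uridine, 39.9, 37.7 and 40.6 CPM with vehicle, 36.4, 41.3 and 37.3 CPM in aged cells and 35.9, 35.5 and 39.8 CPM in young cells. It was the one gene of the 54 called lower with uridine than with vehicle (-0.19 ± 0.07 SE, adjusted p = 0.0276). This call was lost without vehicle replicate 1 (log2 fold change -0.18, adjusted p = 0.081), vehicle replicate 3 (-0.17, 0.094), uridine replicate 1 (-0.17, 0.094) or uridine replicate 2 (-0.18, 0.085). Gins3 (chr8:95633453-95645060) had 18.02, 20.1 and 16.01 CPM with uridine, 20.7, 21.04 and 19.7 CPM with vehicle, 11.3, 8.42 and 10.3 CPM in aged cells and 13.7, 15.4 and 15.9 CPM in young cells, so that both cultured groups lay above the young group (1.03 ± 0.11 SE, adjusted p = 4.72e-10 for vehicle over aged). Gins1 and Gins2 fell with age (-0.44 and -0.65) and rose with vehicle culture (0.44 and 0.40).

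**Figure D4:**
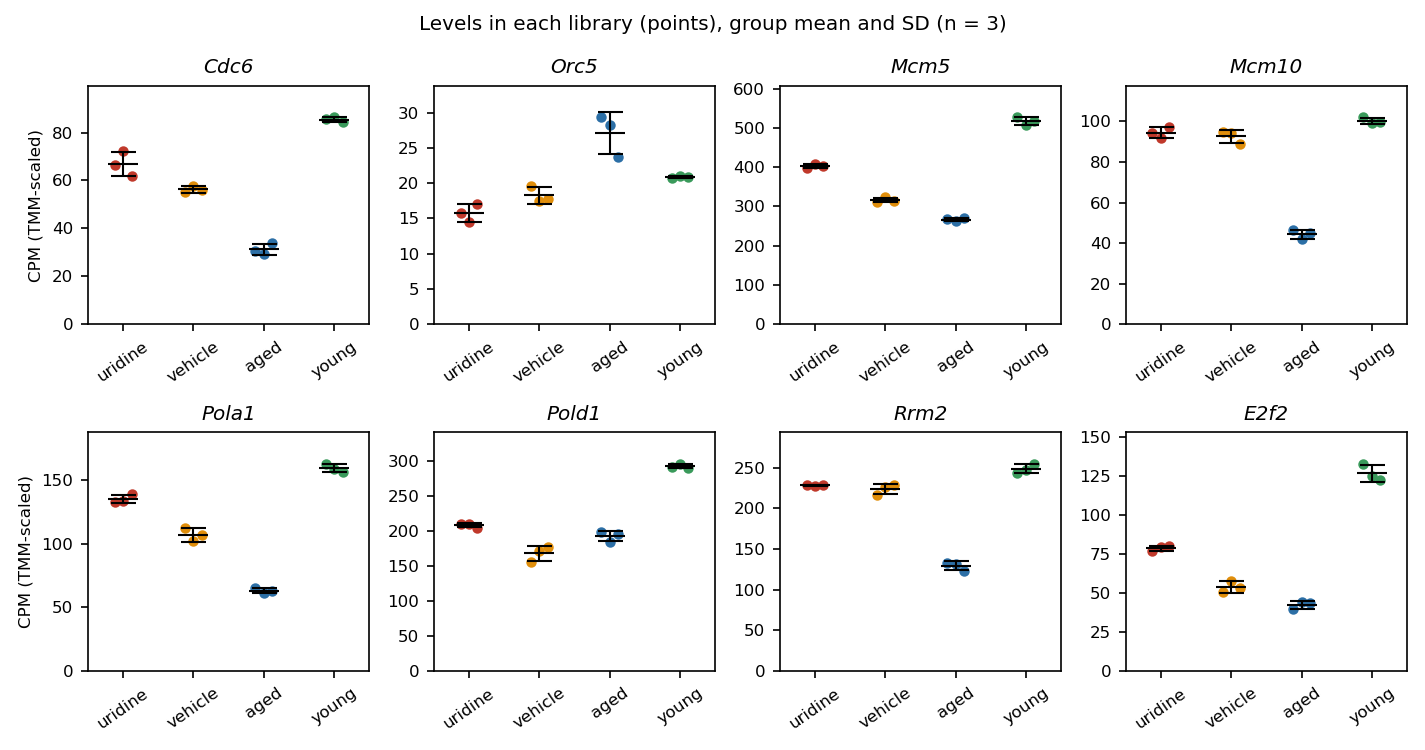
CPM (y axes, each from 0) of Cdc6, Orc5, Mcm5, Mcm10, Pola1, Pold1, Rrm2 and E2f2 in each library (points), with the mean and SD of the uridine, vehicle, uncultured aged and uncultured young groups (n = 3 each). Orc5 is highest in aged libraries, Pold1 is lowest with vehicle, and the other 6 genes are lowest in aged and highest in young libraries.

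The polymerase and primase genes all fell with age (8 of 8, median -0.69). With vehicle culture 6 rose and 2 fell (median 0.42), and with uridine over vehicle 4 rose and none fell (median 0.15). After the subtraction 1 of the 8 was higher with uridine than with vehicle (median -0.02). Pola1 (chrX:93304767-93632155), the catalytic subunit of the polymerase that starts each strand, had 133, 134 and 139 CPM with uridine, 113, 102 and 107 CPM with vehicle, 64.98, 61.2 and 62.6 CPM in aged cells and 163, 159 and 157 CPM in young cells. Pole (chr5:110286306-110337474), the leading-strand polymerase, had 131, 131 and 134 CPM with uridine, 107, 105 and 108 CPM with vehicle, 61.3, 68.1 and 65.6 CPM in aged cells and 174, 173 and 169.9 CPM in young cells. For both genes the 4 groups were separate. Pola1 changed by -1.34 ± 0.04 (SE, adjusted p = 2.55e-25) for aged over young, 0.77 ± 0.04 (SE, adjusted p = 9.02e-18) for vehicle over aged and 0.33 ± 0.04 (SE, adjusted p = 1.17e-08) for uridine over vehicle, and Pole by -1.41, 0.72 and 0.30 in the same 3 comparisons. After the subtraction uridine over vehicle was 0.18 for Pola1 and 0.05 for Pole, and the call of Pole was lost (adjusted p = 0.497).

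The lagging-strand polymerase delta followed another course. Pold1 (chr7:44532746-44548849), its catalytic subunit, had 210.0, 209.5 and 204 CPM with uridine, 156, 171 and 176 CPM with vehicle, 198, 184 and 195 CPM in aged cells and 291, 296 and 290.3 CPM in young cells. It fell with age (-0.60 ± 0.04 SE, adjusted p = 5.82e-17) and fell again with vehicle culture (-0.20 ± 0.04 SE, adjusted p = 1.29e-05), so that the vehicle libraries were the lowest, and it was higher with uridine than with vehicle (0.31 ± 0.04 SE, adjusted p = 8.23e-09). After the subtraction that difference was -0.03 and was not called (adjusted p = 0.673). Pold2 (chr11:5872180-5878292), its second subunit, had 73.3, 63.96 and 69.7 CPM with uridine, 61.1, 59.4 and 60.4 CPM with vehicle, 72.3, 72.6 and 84.9 CPM in aged cells and 93.3, 88.9 and 90.7 CPM in young cells. Its fall with vehicle culture was -0.34 ± 0.06 (SE, adjusted p = 1.77e-06); the smaller one for uridine over aged (-0.15, adjusted p = 0.017) was lost without uridine replicate 2 (-0.10, adjusted p = 0.162) or aged replicate 3 (-0.07, adjusted p = 0.256). Pola2, Prim1, Prim2 and Pole2, the other subunits, fell with age by 0.66 to 0.73 and rose with vehicle culture by 0.38 to 0.56 on the log2 scale, and none was called for uridine over vehicle.

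The sliding clamp Pcna (chr2:132249162-132253314) had 412, 399.6 and 402 CPM with uridine, 386, 379.9 and 382 CPM with vehicle, 319, 309 and 311 CPM in aged cells and 518, 518 and 504 CPM in young cells, with 4 separate groups. It fell with age (-0.72 ± 0.03 SE, adjusted p = 1.32e-23), rose with vehicle culture (0.29) and was 0.08 higher on the log2 scale with uridine than with vehicle (edgeR adjusted p = 0.0102). This last call was lost with DESeq2 size factors (adjusted p = 0.065) and without vehicle replicate 2 (0.0548) or uridine replicate 1 (0.0705), and it turned to a fall after the subtraction (-0.14, adjusted p = 0.000869). With uridine over vehicle 3 of the 6 clamp and loader genes rose and none fell, beside 20.0% and 18.1% of all genes. After the subtraction none was higher and 3 were lower, beside 6.53% and 10.0% of all genes. Of the 5 subunits of replication factor C, which load the clamp, Rfc1 fell most with age, with 163, 162 and 159 CPM with uridine, 149.7, 144 and 140.1 CPM with vehicle, 106, 118 and 110.2 CPM in aged cells and 181, 193 and 181 CPM in young cells (-0.73 for aged over young). Rfc2 was called in none of the 4 comparisons, with means of 174 ± 3.18 CPM with uridine, 184 ± 6.39 CPM with vehicle, 175 ± 9.02 CPM in aged cells and 178 ± 2.97 CPM in young cells (SD, n = 3 each). Rfc3 had 40.8, 40.8 and 40.9 CPM with uridine, 43.1, 40.8 and 39.4 CPM with vehicle, 32.96, 28.04 and 27.97 CPM in aged cells and 45.2, 50.1 and 42.8 CPM in young cells, and rose most of the clamp genes with vehicle culture (0.47). Rfc4 had 38.1, 38.5 and 36.5 CPM with uridine, 28.4, 33.3 and 31.4 CPM with vehicle, 35.8, 32.3 and 35.5 CPM in aged cells and 48.9, 42.4 and 45.99 CPM in young cells; it was not called for vehicle over aged (-0.15) and was higher with uridine than with vehicle (0.28, or 0.10 and not called after the subtraction).

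The subunits of RPA, which coats single-stranded DNA, had the smallest median changes of the roles with age (-0.37, 3 of 3 lower) and with vehicle culture (0.07, 1 of 3 higher). Rpa1, the large subunit, had 178, 178 and 182 CPM with uridine, 169, 165 and 169.5 CPM with vehicle, 169.7, 157 and 173 CPM in aged cells and 218, 219 and 219 CPM in young cells, so that the vehicle and aged ranges overlapped and the young libraries were the highest. Rpa3, the small subunit, had 32.8, 31.2 and 29.4 CPM with uridine, 33.1, 33.3 and 33.2 CPM with vehicle, 25.1, 28.1 and 25.7 CPM in aged cells and 31.2, 31.4 and 33.9 CPM in young cells, and was the one RPA gene called with vehicle culture (0.34 ± 0.08 SE, adjusted p = 1.65e-04). The call of Rpa1 for uridine over vehicle (0.09, adjusted p = 0.0263) was lost under DESeq2 (adjusted p = 0.102) and when vehicle replicates 1, 2 or 3 or uridine replicate 3 were left out (adjusted p 0.052 to 0.129), and the value was -0.09 after the subtraction.

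All 3 genes that mature the lagging strand fell with age (median -0.98) and rose with vehicle culture (median 0.86). Lig1 (chr7:13277283-13311433), the ligase that seals Okazaki fragments, had 222, 207 and 214 CPM with uridine, 177, 175 and 178 CPM with vehicle, 151, 155 and 152 CPM in aged cells and 309.8, 313 and 312 CPM in young cells. Dna2 (chr10:62947026-62974185), a nuclease and helicase that trims the flaps of those fragments, had 101, 97.02 and 99.4 CPM with uridine, 99.7, 92.7 and 92.9 CPM with vehicle, 57.1, 51.98 and 47.5 CPM in aged cells and 101, 103 and 105 CPM in young cells. Both were lowest in aged cells, but as deposited their calls differed in the cultured groups. Lig1 rose a little with vehicle (0.21 ± 0.03 SE, adjusted p = 4.64e-07) and was 0.28 ± 0.03 higher with uridine than with vehicle (SE, adjusted p = 2.74e-09), a difference that was -0.11 after the subtraction (adjusted p = 0.0533). Dna2 rose with vehicle (0.87 ± 0.05 SE, adjusted p = 3.16e-17) to just below the young libraries, and its difference between uridine and vehicle was not called (0.06).

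Ribonucleotide reductase makes deoxynucleotides from ribonucleotides, and both subunit genes of its S phase form fell with age and rose with culture. Rrm1 (chr7:102441695-102469771), the large subunit, had 391, 396 and 404 CPM with uridine, 368, 375 and 371 CPM with vehicle, 241, 232 and 238 CPM in aged cells and 453, 444 and 452 CPM in young cells. Rrm2 (chr12:24708241-24714146), the small subunit, had 229, 228 and 228 CPM with uridine, 217, 226 and 229 CPM with vehicle, 133, 132 and 123 CPM in aged cells and 244, 247 and 255 CPM in young cells. The groups were separate for Rrm1, whereas the uridine and vehicle libraries overlapped for Rrm2. The log2 fold changes of Rrm1 and Rrm2 were -0.93 and -0.95 for aged over young, 0.65 and 0.79 for vehicle over aged, and 0.10 (edgeR adjusted p = 0.00299) and 0.03 (adjusted p = 0.531, not called) for uridine over vehicle. After the subtraction the last 2 values were -0.02 and -0.06, neither called.

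Of 11 other genes of nucleotide supply, 3 (27.3%) rose and 6 (54.5%) fell with age, beside 33.2% and 32.1% of all genes. With vehicle culture 6 (54.5%) rose and 3 (27.3%) fell, beside 35.4% and 35.1% of all genes. With uridine over vehicle 1 (9.09%) rose and 2 (18.2%) fell, beside 20.0% and 18.1% of all genes. Dck, the kinase that salvages deoxycytidine, had 147, 145 and 154 CPM with uridine, 167, 177 and 163 CPM with vehicle, 46.5, 45.2 and 48.5 CPM in aged cells and 141, 139 and 137 CPM in young cells, with log2 fold changes of -1.57 for aged over young, 1.86 for vehicle over aged and -0.19 for uridine over vehicle. The last was -0.16 after the subtraction (edgeR adjusted p = 0.00854). Samhd1, which breaks deoxynucleotides down, had 315, 309.6 and 311 CPM with uridine, 424, 417 and 411 CPM with vehicle, 203, 216 and 203 CPM in aged cells and 148, 150.2 and 155 CPM in young cells. As deposited it ran against Rrm1 in the age and uridine comparisons. It rose with age (0.46 ± 0.03 SE, adjusted p = 3.61e-15) and was lower with uridine than with vehicle (-0.42 ± 0.03 SE, adjusted p = 1.80e-14; -0.11 after the subtraction, adjusted p = 0.0206). Rrm2b, the p53-inducible small subunit used outside S phase, rose with age (0.88 ± 0.12 SE, adjusted p = 1.11e-07), with 16.3, 14.9 and 17.01 CPM with uridine, 18.1, 14.8 and 18.6 CPM with vehicle, 19.4, 25.8 and 32.9 CPM in aged cells and 14.2, 14.3 and 13.8 CPM in young cells.

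The 4 fork protection genes all fell with age (median -0.87) and all rose with vehicle culture (median 0.48). With uridine over vehicle 2 of the 4 rose, Clspn and Wdhd1, beside 20.0% of all genes. After the subtraction neither was called, and 1 of the 4 was lower, beside 10.0% of all genes. Clspn (chr4:126556935-126593903), which encodes claspin, the mediator of checkpoint signalling at forks, had 105, 98.4 and 94.9 CPM with uridine, 89.1, 88.8 and 90.3 CPM with vehicle, 43.5, 45.4 and 46.6 CPM in aged cells and 112, 117 and 114 CPM in young cells. It had the largest log2 fold change of the 54 genes for uridine over aged (1.14 ± 0.05 SE, adjusted p = 1.02e-21). Wdhd1, the fork scaffold also known as AND-1, had 97.9, 106 and 106 CPM with uridine, 91.7, 90.2 and 90.1 CPM with vehicle, 67.3, 67.00 and 72.5 CPM in aged cells and 124, 132 and 126 CPM in young cells, with 4 separate groups. Timeless and its partner Tipin fell with age by 0.86 and 0.30 on the log2 scale, and neither was called for uridine over vehicle.

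Chaf1a and Chaf1b, subunits of the chromatin assembly factor that places histones behind the fork, both fell with age (-0.88 and -0.42) and rose with vehicle culture (0.67 and 0.34). Chaf1a had 106, 119 and 109 CPM with uridine, 104, 102 and 99.2 CPM with vehicle, 61.7, 65.8 and 63.9 CPM in aged cells and 115, 118 and 120.3 CPM in young cells. Its call for uridine over vehicle (0.13, adjusted p = 0.0181) was lost under DESeq2 (adjusted p = 0.0786) and without vehicle replicate 2 or 3 or uridine replicate 2 (adjusted p 0.0532 to 0.221), and after the subtraction (0.06, adjusted p = 0.461).

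The E2F and cyclin E genes, which drive entry into S phase, all fell with age (5 of 5, median -0.88) and all rose with vehicle culture (median 0.36), and 3 were higher with uridine than with vehicle, against none after the subtraction (median -0.0008). E2f2 (chr4:136172394-136196057), an E2F activator, had 76.8, 79.2 and 79.7 CPM with uridine, 50.3, 57.7 and 52.9 CPM with vehicle, 39.3, 44.04 and 43.6 CPM in aged cells and 133, 125 and 122 CPM in young cells. It had the largest changes of the 54 genes both with age (-1.58 ± 0.05 SE, adjusted p = 2.51e-24) and for uridine over vehicle (0.55 ± 0.05 SE, adjusted p = 7.29e-11), the uridine value being as deposited. After the subtraction it was at 0.006 (adjusted p = 0.965). E2f8, an atypical, repressive E2F that is itself made in S phase, had 116, 110.5 and 115 CPM with uridine, 98.5, 101 and 104 CPM with vehicle, 59.1, 59.3 and 59.5 CPM in aged cells and 128, 139.7 and 137 CPM in young cells. Ccne2, 1 of the 2 cyclin E genes, had 33.4, 30.3 and 30.2 CPM with uridine, 32.4, 33.5 and 29.9 CPM with vehicle, 14.9, 17.3 and 17.3 CPM in aged cells and 29.7, 27.2 and 31.3 CPM in young cells, so that both cultured groups overlapped the young group. Ccne1, the other, averaged 29.8 ± 2.18 CPM with uridine and 28.2 ± 1.03 CPM with vehicle, 22.4 ± 2.95 CPM in aged and 41.4 ± 2.10 CPM in young cells (SD, n = 3 each).

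The genes were also split by the presence of an E2F word in the promoter window. For aged over young the median log2 fold change was -0.85 in the 16 genes with a word and -0.72 in the 28 without, and for vehicle over aged 0.41 and 0.39. For uridine over vehicle as deposited it was 0.21 with a word, where 11 of 16 rose, and 0.09 without, where 13 of 28 rose, beside 20.0% of all genes. After the subtraction 2 of the 54 genes, Mcm5 and Pola1, were still called higher. Their own shares of 43.3 and 53.3% lay above the 33.3% removed, so these 2 calls say nothing about E2F words. Medians of this split were not taken after the subtraction. These are descriptions with no test.

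Other genes of the same pathway were listed by function. Of 68 further genes of origin firing, the fork, nucleotide supply, the checkpoint and the E2F network, 52 fell and 8 rose with age (median -0.55), 46 rose and 10 fell with vehicle culture (median 0.38), 22 (32.4%) rose and 7 (10.3%) fell with uridine over vehicle (median 0.05), and 47 rose and 10 fell with uridine over aged (median 0.49). Of all genes, 20.0% rose and 18.1% fell with uridine over vehicle, 32.1% fell and 33.2% rose with age, and 35.4% rose and 35.1% fell with vehicle culture. With uridine over aged 35.8% of all genes rose and 32.1% fell. After the subtraction 7 of the 68 were higher and 8 lower with uridine than with vehicle (median -0.01), beside 6.53% and 10.0% of all genes. E2f7, the other atypical E2F, had the largest fall with age (-1.68 ± 0.09 SE, adjusted p = 1.46e-18), and Ccnd1, the gene of cyclin D1, the largest rise with vehicle culture (2.20 ± 0.09 SE, adjusted p = 2.23e-22). Pold4, a small subunit of polymerase delta that is degraded after DNA damage in human cells, ran against them: it had 20.6, 19.6 and 21.1 CPM with uridine, 24.5, 24.3 and 26.9 CPM with vehicle, 47.1, 43.9 and 49.5 CPM in aged cells and 22.4, 21.9 and 22.5 CPM in young cells, with 1.07 ± 0.08 (SE, adjusted p = 5.03e-15) for aged over young. Recql4 and Ticrr, both needed to fire origins, were higher with uridine than with vehicle (0.50 and 0.41). After the subtraction Ticrr was still called (0.24, adjusted p = 0.00743) and Recql4 was not (0.18, adjusted p = 0.178).

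Genes of mitosis, the later part of the cycle, moved with the replication genes in the age and culture comparisons. All 20 fell with age (median -0.83) and all 20 rose with vehicle culture (median 0.66), whereas with uridine over vehicle 6 (30.0%) rose and none fell (median 0.01), beside 20.0% and 18.1% of all genes. After the subtraction 1 of the 20 was higher and 4 were lower with uridine than with vehicle (median -0.03), beside 6.53% and 10.0% of all genes. Mki67, the proliferation marker Ki-67, had 857, 862 and 868 CPM with uridine, 622, 618 and 636 CPM with vehicle, 351, 382 and 369 CPM in aged cells and 1184, 1195 and 1207 CPM in young cells. The 4 groups did not overlap, with log2 fold changes of -1.70 for aged over young, 0.77 for vehicle over aged and 0.46 for uridine over vehicle (0.14 after the subtraction).

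Markers of other cell types also differed between the uridine and vehicle libraries. The 10 neutrophil markers summed to 2229 to 2304 CPM with uridine, 394 to 398 CPM with vehicle, 605 to 645 CPM in aged cells and 5859 to 6063 CPM in young cells. Ltf, the granule protein lactoferrin, had 356, 337 and 359.9 CPM with uridine, 10.9, 9.39 and 8.30 CPM with vehicle, 59.6, 56.4 and 56.01 CPM in aged cells and 1015, 1026 and 1031 CPM in young cells. The 12 erythroid markers summed to 684 to 691 CPM with uridine, 416 to 427 CPM with vehicle, 514 to 522 CPM in aged cells and 1207 to 1216 CPM in young cells, with 1 of the 12 at 0 with vehicle. The median erythroid marker changed far more than this sum. With vehicle culture 10 of the 12 fell and 1 rose, at a median level 0.0568 times that of uncultured aged cells. With uridine over vehicle all 12 rose, at a median level 24.3 times that of vehicle. The 9 stroma markers summed to 248 to 256 CPM with uridine, 100.4 to 103 CPM with vehicle, 118 to 129 CPM in aged cells and 634 to 662 CPM in young cells, with 2 at 0 with vehicle. Of the 10 neutrophil markers, 9 rose and 1 fell with uridine over vehicle, and 2 rose and 7 fell with vehicle culture. Of the 9 stroma markers 7 passed the filter. With uridine over vehicle 5 of these rose and none fell, with log2 fold changes from -1.24 to 8.30. For each of these lists the sum in the uridine libraries lay between the sums in the vehicle and the young libraries.

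That position was measured, as an addition made after these values were seen. In 145 genes outside the 54 that had at least 5 CPM in young cells and at least 10 times the vehicle level, the uridine mean lay a median of 33.3% of the way from the vehicle mean to the young mean (interquartile range 31.0 to 36.3%). The 3 uridine libraries gave medians of 33.7, 32.9 and 34.2%. Among the 31 replication genes whose young mean was at least 1.2 times the vehicle mean, the uridine mean lay a median of 35.3% of the way (interquartile range 29.4 to 39.3%, range 12.2 to 59.5%). Mcm5, Pola1 and E2f2 were at 43.3, 53.3 and 34.2%.

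When 33.3% of the young profile was subtracted from the uridine libraries, 2 of the 54 genes were higher with uridine than with vehicle and 8 were lower, and the median log2 fold change was -0.03, against 26, 1 and 0.10 as deposited. Of all genes, 6.53% were then higher and 10.0% lower. The 2 that remained higher were Mcm5 (0.11, edgeR adjusted p = 0.00837) and Pola1 (0.18, adjusted p = 0.00634), whose own shares of 43.3 and 53.3% lay above the 33.3% removed. The 8 lower ones were Pcna (-0.14), Rfc2 (-0.12), Rfc5 (-0.17), Tipin (-0.16), Gmnn (-0.23), Gins4 (-0.26), Gins2 (-0.30) and Orc5 (-0.48); Pcna changed its direction. The rises as deposited with a value below 0 after the subtraction were those of Pcna, Lig1, Rpa1, Pold2 (-0.07), Cdc45 (-0.03), Pold1, E2f1 (-0.03), Rrm1 and Wdhd1 (-0.007); of these, Pcna was called lower. Against uncultured aged cells the subtracted uridine libraries had 40 replication genes higher and 5 lower, with a median of 0.35, beside 33.6% of all genes higher and 34.5% lower. The median share of the replication genes, 35.3%, lay near the 33.3% removed, so the subtraction had to bring most of their values near 0. It thus cannot test whether uridine changed these genes. A single share was used, and the p-values after it leave out the spread of that share. The labels give no mixing of samples, and what the shared profile of the uridine and young libraries comes from was not tested.

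**Figure D5:**
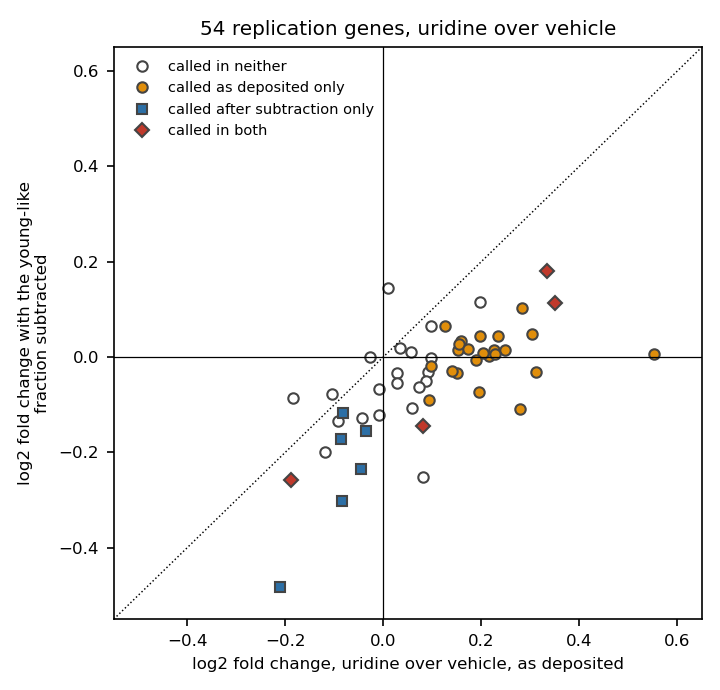
Log2 fold change of each replication gene for uridine over vehicle as deposited (x axis) and with 33.3% of the young profile subtracted from the uridine libraries (y axis); symbols mark genes called in both (4), as deposited alone (23), after subtraction alone (6) or in neither (21). Most points lie below the dotted line of equal values, and the median is -0.03 after subtraction, against 0.10 as deposited.

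Reads of some of these genes can come from neighbours. In the annotation, exons of 11 of the 54 genes overlap another gene over more than 10% of their length. These are Fen1 (84.2%), Gins2 (67.3%), Chaf1a (52.5%), Orc2 (29.8%), Ccne2 (17.4%), Rfc2 (15.1%), Rfc4 (12.7%), Mcm7 (12.6%), E2f8 (11.2%), Orc1 (10.8%) and Rfc5 (10.7%). The sources used here do not say whether counting used the strand, so the values of these 11 genes are uncertain. Fen1, the flap nuclease, had 13.3, 12.8 and 15.3 CPM with uridine, 14.9, 13.95 and 12.3 CPM with vehicle, 7.46, 8.07 and 7.10 CPM in aged cells and 10.7, 9.42 and 12.03 CPM in young cells. Among the other 43 genes, 40 fell and 1 rose with age, 35 rose and 4 fell with vehicle culture, and 22 rose and 1 fell with uridine over vehicle.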

How the data were processed

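RNA was extracted with Trizol, mRNA was bound to poly-T beads, and paired reads of 150 bp were made on an Illumina NovaSeq instrument, per the labels' protocols. The submitters' processing notes name HISAT2 2.0.5 as the aligner and mm10 as the build. The authors deposited raw read counts per gene, not normalized, as a table of 54532 Ensembl IDs by 12 libraries; how reads were counted (program, gene models, strand) is not given in the sources used here. The symbols, exons and positions came from GENCODE M21 (GRCm38, the mm10 build), which held 54409 of the IDs; the other 123 took at most 0.0649% of a library's counts.

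Genes were kept by filterByExpr (16675), scaled by TMM, and fitted with edgeR 4.0.16 in R 4.3.3 (quasi-likelihood, 1 mean per group, all 12 libraries, residual degrees of freedom 8). P-values were adjusted by Benjamini-Hochberg across the 16675 genes, and 0.05 was the threshold; an adjusted p in the text is from this test unless another tool is named. CPM values are TMM-scaled. The test was checked on simulated data with known changes. The members, the gene lists and the tests were chosen with earlier results of these data known. A member was given in every library where it had the largest absolute log2 fold change of its role in one of the comparisons or was called against the direction of most; Orc1, Orc3, Rfc2, Mcm6, Pcna and Fen1 and other members were named beyond that rule after their values were seen. Of other replication genes, the 3 largest called changes per direction and Mki67 could be named.

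Pairs of libraries within a group differed by more than sampling noise (chi-square per degree of freedom 2.27 to 3.94 over genes with at least 50 counts), so none was taken as a repeat deposit. At this depth the precision is set by the spread between libraries (common biological coefficient of variation 0.0438). Alternatives were DESeq2 1.42.0, limma 3.58.1 voom, other scaling factors, other filters, the 6 compared libraries alone, the replicate number as a block, a log2 fold change of at least 0.5, and each library left out. A subtraction of the young profile from the uridine libraries, and leaving out genes with overlapping exons, were added after the data were seen. For the subtraction, levels below 0.05 CPM were set to 0.05 when genes were chosen, and the counts left, fewer than as deposited, were refitted in the same way.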

Additional observations from a re-analysis of the deposited data

How the results depend on the processing

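Of the counts over the 54 genes and over all genes, 247 of 272 values under an alternative were within 1.5 times the main value. Most that were not came from asking for a log2 fold change of at least 0.5: aged over young then had 0 of the 54 genes higher (1 by edgeR's adjusted p alone), with 3569 of all genes higher and 2977 lower; vehicle over aged had 19 higher and 1 lower, with 3636 of all genes higher; uridine over vehicle had 1 higher and 0 lower, with 1544 and 770 of all genes; and uridine over aged had 27 higher and 1 lower, with 3717 of all genes higher. For uridine over vehicle, the number of the 54 genes lower was 3 with DESeq2 size factors and 2 with DESeq2, and 0 to 2 with a library left out. Subtracting the young profile, an alternative added after the data were seen, gave 2 higher and 8 lower (all genes 1088 and 1670) and a median of -0.031 for uridine over vehicle, and 5 lower for uridine over aged; of the 26 rises it left 9 below 0: Pcna, called lower, Lig1 (-0.11), Rpa1 (-0.091), Rrm1 (-0.020), Wdhd1 (-0.0066), Pold1, Pold2, Cdc45 and E2f1. A fold minimum can only lower a count, and the uridine over vehicle values after the subtraction follow largely from the share removed. The cause of the other shifts was not tested. The medians of the 54 genes ran from -0.74 to -0.72 for aged over young, 0.33 to 0.43 for vehicle over aged, -0.03 to 0.11 for uridine over vehicle and 0.35 to 0.52 for uridine over aged. Same-numbered libraries of different groups did not deviate together (18 pairs, correlation -0.041 to 0.039), and 3 of 12 libraries correlated best with their own number. These values gave no sign of pairing by number, but cannot tell whether same-numbered libraries share a mouse or a preparation. With the replicate block the 54 genes gave 50 lower and 1 higher for aged over young, 44 and 4 higher and lower for vehicle over aged, 26 and 1 for uridine over vehicle and 47 and 3 for uridine over aged. Over all 54 genes, 24 of the 26 rises for uridine over vehicle and 7 of the 47 for uridine over aged were lost or turned by the subtraction. The other alternatives ended 7 of those 26 (Cdc45, Chaf1a, Clspn, E2f1, Pcna, Pold2 and Rpa1), 4 of those 47 (Gmnn, Pold1, Rpa1 and Tipin), the fall of Gins4 for uridine over vehicle, that of Pold2 for uridine over aged, that of Cdt1 with age and the rise of Tipin with vehicle culture; the fold minimum is not counted here.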
